A study of Homo sapiens with 6 samples.

Results

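The IGF receptors IGF1R and IGF2R, the ligand IGF2 and the 7 IGF-binding proteins IGFBP1 to IGFBP7 were followed in EGFR-mutant lung cancer cells before and after exposure to osimertinib (Osi). These 10 genes were chosen by symbol and by no rule on their values, although earlier results of these data were known. All 10 were found among the 27216 rows of the deposited expression table. In adapted cells, both receptors rose by close to 0.75 on the log2 scale, IGFBP2 and IGFBP6 fell, IGFBP4 rose, and IGFBP3, by far the most abundant of the 10, was not called, with a 95% interval of its log2 difference from -0.17 to 0.18.

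Insulin-like growth factors are secreted peptides that signal through IGF1R, a receptor tyrosine kinase that recruits IRS adaptors and activates PI3K, AKT and ERK. IGF2R has no kinase; it binds IGF2 and delivers it to lysosomes, and it is also the larger of the receptors that sort lysosomal enzymes by their mannose 6-phosphate tag. The IGFBPs are secreted proteins that hold IGFs outside the cell, prolong their life and control their access to IGF1R, and several also act at the cell surface without IGF. In EGFR-mutant lung cancer this axis is known as a route by which cells can keep PI3K and AKT signaling when EGFR is blocked. In the line used here, H1975, the study's immunoblots over 72 h of Osi showed phosphorylated AKT, ERK and S6 still inhibited. The study concluded that adaptive resistance was not caused by renewed EGFR signaling.

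RNA was sequenced from H1975, a human non-small cell lung cancer (NSCLC) line with genotype WT in the labels, as 3 parental samples, collected at 0 h, and 3 adapted samples, collected after 72 h in 1000 nM of Osi, which inhibits mutant EGFR. The labels give DMEM with serum as the medium and the study's methods another medium with serum, and apoptotic cells were washed off before RNA extraction, so the adapted samples hold the cells that remained. The labels give the parental samples the same dose of Osi for 0 h, while their columns in the table are named for DMSO. Whether those cells were kept in DMSO is not given in the sources used here, so time in culture and exposure to Osi cannot be told apart. The study's list of compounds gives a lower concentration of Osi than the labels. The labels also describe digestion with RNase R, which removes linear RNA, while the study's methods name total RNA, and a gene's linear and circular transcripts cannot be told apart in these values.

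The table gives log2(x + 1) of a length-scaled expression value, which was taken as FPKM from the values (fragments per kilobase of transcript, scaled to the mapped total). The linear values of a sample added up to 375342 to 387753, the read depth is unknown, and the spread between the 3 samples of a group is therefore the error given throughout. Adapted replicate 1 stood apart from the other adapted samples, with a correlation of 0.991 to each of them across all rows against 0.996 between adapted replicates 2 and 3 (across genes, which are not independent replicates). It differed from the mean of the other adapted samples by more than 1 on the log2 scale in 202 of 12656 tested rows (1.60%). Its correlation with the parental samples was 0.9725 to 0.9727, against 0.9632 to 0.9636 for adapted replicates 2 and 3. All 6 epithelial markers checked (EPCAM, CDH1, KRT7, KRT8, KRT18 and KRT19) were expressed, with a summed level of 3710 to 3742 FPKM in parental and 3491 to 3788 FPKM in adapted samples. Within this sum KRT7 rose by 1.07 (limma, adjusted p = 2.19e-04), while KRT19 fell by 0.75 (4.74e-04), KRT18 by 0.57 (0.00427) and KRT8 by 0.28 (0.0477). Of the 5 immune markers, CD3E and MS4A1 were listed at 0 in every sample, and PTPRC was at most 0.08 (log2(FPKM + 1)). CD68 averaged 6.25 on this scale in parental samples and was lower in adapted samples, with a log2 difference of -1.85 (limma, adjusted p = 3.63e-04). CD14 had a mean of 0.77 in parental and 0.21 in adapted samples (limma without the filter, adjusted p = 0.00188). The samples were cultures of the H1975 line, so these markers do not stand for added immune cells. A lower value in bulk RNA can come from fewer cells of the culture expressing the gene or from less RNA per cell. These cannot be told apart.

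Of the 10 genes, 7 passed a filter that kept rows averaging 1 or more on the log2(FPKM + 1) scale, and limma was fitted to all 12656 rows so kept. Adjusted p was under 0.05 for 5 of the 7, of which 3 were higher (IGF1R, IGF2R and IGFBP4) and 2 lower (IGFBP2 and IGFBP6) in adapted cells. The same rule called 56.9% of all tested rows, 30.7% higher and 26.2% lower, so that 5 of 7 lies near the share for the whole table. The groups did not overlap in 5 of the 7, against 66.3% of all tested rows (35.7% higher and 30.6% lower). The median log2 difference of the 7 genes was 0.0065, against 0.028 over all tested rows. The other 3 genes, IGF2, IGFBP5 and IGFBP7, averaged below the filter in both groups and are given by their values.

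**Figure D1:**
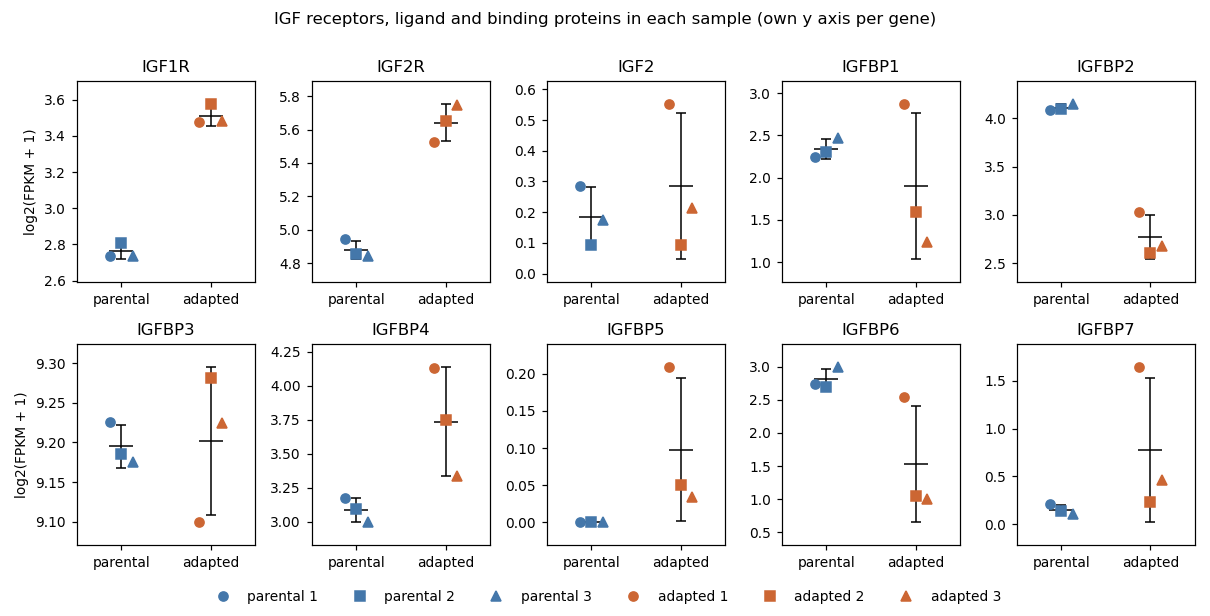
Values of the 10 genes in each of the 6 samples, with log2(FPKM + 1) on the y axis (a separate range for each gene) and the groups on the x axis. Points are samples, with a shape for each replicate number, and black bars are the group mean ± SD (n = 3). The receptors and IGFBP2 separate the groups with little spread, while adapted replicate 1 (circles) lies away from adapted replicates 2 and 3 in IGFBP1, IGFBP6 and IGFBP7.

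To ask whether the receptors of the axis changed, IGF1R was examined first. IGF1R, the signaling receptor, spans chromosome 15, 98648539 to 98964530, plus strand (GENCODE 29, GRCh38). Its log2(FPKM + 1) was 2.74, 2.81 and 2.74 in the parental samples and 3.47, 3.58 and 3.48 in the adapted samples. All adapted samples were above all parental samples, with a gap many times the spread within either group. The log2 difference was 0.75 (standard error 0.07, limma, adjusted p = 9.55e-05), and its 95% interval ran from 0.60 to 0.90. In linear terms IGF1R went from 5.79 ± 0.195 to 10.4 ± 0.442 FPKM (SD, n = 3 each), a ratio of 1.80.

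IGF2R, the clearance and sorting receptor, spans chromosome 6, 159969099 to 160113507, plus strand. The antisense gene AIRN overlaps it, and since the strand setting of the authors' counting is not known, reads of both cannot be told apart. In the 6 samples its log2(FPKM + 1) was 4.94, 4.85 and 4.84 in parental samples and 5.53, 5.65 and 5.75 in adapted samples. The groups again did not overlap. Adapted minus parental, the log2 difference was 0.76 (standard error 0.07, limma, adjusted p = 1.40e-04), with a 95% interval from 0.59 to 0.93, and the linear value rose from 28.5 ± 1.12 to 49.0 ± 3.81 FPKM (SD, n = 3 each), a ratio of 1.72.

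The balance of the receptors was then read from FPKM, which is scaled by transcript length. IGF2R stood at 4.92 ± 0.300 times the FPKM of IGF1R in parental cells and at 4.72 ± 0.395 times in adapted cells (SD, n = 3 each), ranges that overlapped. IGF1R relative to the insulin receptor INSR, with which it can form hybrid receptors, moved from 1.23 ± 0.038 to 1.82 ± 0.180 (SD, n = 3 each), and all 3 adapted ratios (1.62, 1.87 and 1.96) were above all 3 parental ratios (1.19, 1.27 and 1.23; two-sided exact permutation tests on 3 against 3 cannot give a p below 0.1). The calls of both receptors held under every alternative run, including each fit without a sample, with log2 differences of 0.72 to 0.84 for IGF1R and 0.71 to 0.82 for IGF2R.

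The bases before the RNA starts of the 3 genes that rose and of IGFBP2, which fell in every alternative run, are shown so that the starts of genes that moved in opposite directions can be read side by side. They come from RefSeq (GRCh38), which listed a start for 7 of the 10 genes (not IGF2, IGFBP1 or IGFBP7), and stop where an annotated exon begins. Capitals mark matches, on either strand, to the GC box GGGCGG, the TATA box TATAAA, the E-box CACGTG, the FOXO motif GTAAACA, the insulin response core CAAAACA, the TEAD motif CATTCC and the AP-1 motif TGANTCA, and matches may overlap. For IGFBP2, which has 3 listed starts, the bases before the start at 216633420 are shown, chosen for its higher GC content.
IGF1R, chr15:98648289-98648538, plus strand: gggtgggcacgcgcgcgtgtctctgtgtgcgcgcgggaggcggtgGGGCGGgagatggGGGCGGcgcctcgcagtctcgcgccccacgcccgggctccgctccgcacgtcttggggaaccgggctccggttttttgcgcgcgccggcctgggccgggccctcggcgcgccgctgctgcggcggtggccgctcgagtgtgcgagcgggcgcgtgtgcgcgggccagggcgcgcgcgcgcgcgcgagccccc
IGF2R, chr6:159968832-159969081, plus strand: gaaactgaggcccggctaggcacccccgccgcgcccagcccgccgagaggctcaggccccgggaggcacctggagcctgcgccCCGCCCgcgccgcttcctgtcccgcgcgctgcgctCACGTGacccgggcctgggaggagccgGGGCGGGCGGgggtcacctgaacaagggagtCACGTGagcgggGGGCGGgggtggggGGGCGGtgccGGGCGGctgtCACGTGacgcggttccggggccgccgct
IGFBP4, chr17:40443200-40443449, plus strand: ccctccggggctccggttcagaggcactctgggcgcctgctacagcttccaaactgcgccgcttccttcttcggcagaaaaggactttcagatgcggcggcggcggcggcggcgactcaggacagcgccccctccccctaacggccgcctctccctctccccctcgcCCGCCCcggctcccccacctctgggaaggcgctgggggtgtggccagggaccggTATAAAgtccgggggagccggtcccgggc
IGFBP2, chr2:216633170-216633394, plus strand: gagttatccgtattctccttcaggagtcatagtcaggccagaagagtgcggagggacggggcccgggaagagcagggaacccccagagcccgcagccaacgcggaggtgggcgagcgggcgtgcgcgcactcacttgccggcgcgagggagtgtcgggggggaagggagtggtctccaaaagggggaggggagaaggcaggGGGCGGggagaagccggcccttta

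Over the 250 bases before the start, GC content was 81.2% for IGF1R, 79.2% for IGF2R, 71.6% for IGFBP4 and 69.2% for IGFBP2 (56.8% and 56.4% at its other starts). The GC box matched in the 4 windows shown, with 2 matches in IGF1R, 6 in IGF2R and 1 each in IGFBP4 and IGFBP2, where the start at 216632828 also had 1 and the start at 216659567 had 0, and it matched in 42.6% of all 35116 listed starts over the same length. IGF2R held 3 E-boxes, a motif present in 6.34% of all starts, and IGFBP4 held the TATA box, present in 10.7%. The FOXO, insulin response, TEAD and AP-1 motifs, found in 2.98%, 4.30%, 11.9% and 6.57% of all starts, had no match in these 4 windows. In the window of IGFBP6, which overlaps an annotated exon and is not printed, the FOXO motif and the TEAD motif matched 1 time each, and the window of IGFBP5 held 1 TEAD match. No binding was measured in these cells, so these matches describe letters only.

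The ligand IGF2, the fetal growth factor of the axis, was close to undetected in both groups. The values on the log2(FPKM + 1) scale were 0.29, 0.09 and 0.17 in parental samples and 0.55, 0.09 and 0.21 in adapted samples. The groups overlapped, and without the filter limma gave a log2 difference of 0.10 (adjusted p = 0.671). IGF2 spans chromosome 11, 2129112 to 2149603, minus strand, and shares exons with the read-through gene INS-IGF2, which was listed at 0 in every sample, so reads common to both could be assigned to either. IGF1, the other ligand, was also low, at 0.45, 0.40 and 0.36 in parental samples and 0.29, 0.94 and 1.13 in adapted samples, and insulin (INS) was listed at 0 in every sample. Measured per transcript length, all 3 ligands were thus far below both receptors in every sample.

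IGFBP3, the main IGF carrier of blood and also a p53 target, made up most of the binding-protein transcripts. It spans chromosome 7, 45912245 to 45921874, minus strand. Its log2(FPKM + 1) was 9.23, 9.18 and 9.17 in parental samples and 9.10, 9.28 and 9.23 in adapted samples, so that the adapted samples lay on both sides of the parental range. The log2 difference was 0.0065, with a 95% interval from -0.17 to 0.18 (limma, adjusted p = 0.949). The sign of this small value depended on the scaling, from -0.013 after centring on the sample median to 0.14 after quantile normalization. On the linear scale IGFBP3 was at 585 ± 11.1 FPKM before and 589 ± 37.5 FPKM after Osi (SD, n = 3 each). Its share of the summed FPKM of the 7 binding proteins was 94.2% to 94.7% in parental samples and 93.6% to 97.2% in adapted samples.

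**Figure D2:**
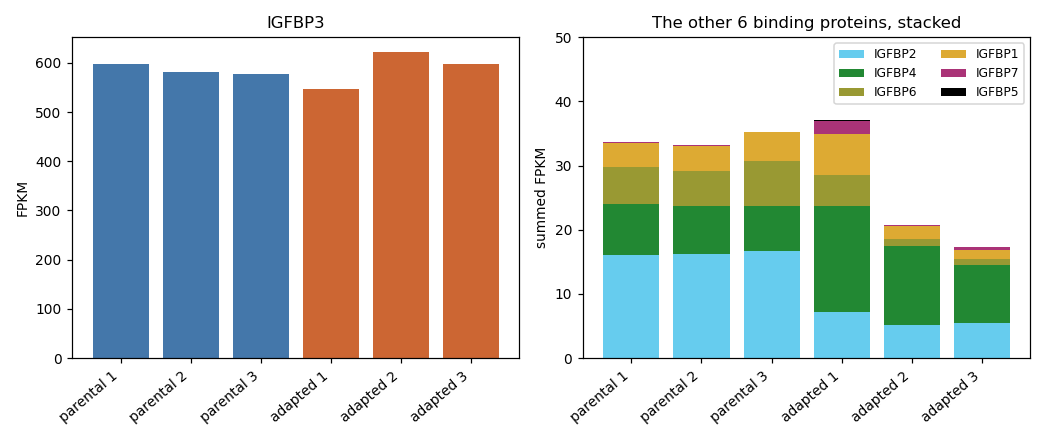
FPKM of IGFBP3 (left) and stacked FPKM of the other 6 binding proteins (right) in each sample, both axes from 0. IGFBP3 stayed between 548 and 621 FPKM in all samples, while the remainder was 33.2 to 35.3 FPKM in parental samples, 37.1 FPKM in adapted replicate 1 and 20.8 and 17.3 FPKM in adapted replicates 2 and 3.

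IGFBP2, a binding protein with an integrin-binding RGD motif that is often high in carcinomas, gave the largest fall among the tested genes on the log2(FPKM + 1) scale. IGFBP6 fell further with a pseudocount of 0.1 (-1.72 against -1.47) and without adapted replicate 1 (-1.79 against -1.47). IGFBP2 spans chromosome 2, 216632828 to 216664436, plus strand. On the log2(FPKM + 1) scale it was at 4.09, 4.10 and 4.15 in parental samples and 3.03, 2.61 and 2.68 in adapted samples. Every adapted sample was lower than every parental sample. This gave a log2 difference of -1.34 (standard error 0.11, limma, adjusted p = 8.52e-05), with a 95% interval from -1.60 to -1.07. In linear terms it went from 16.3 ± 0.376 to 5.90 ± 1.13 FPKM (SD, n = 3 each), a ratio of parental to adapted of 2.76. The call held under every alternative run, with log2 differences of -1.47 to -1.26.

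IGFBP5, whose gene lies tail to tail with IGFBP2 on chromosome 2 with 7668 bases between them, was listed at 0 in all 3 parental samples and at 0.21, 0.05 and 0.03 on the log2(FPKM + 1) scale in adapted samples. These values are near the bottom of the scale, and without the filter limma gave an adjusted p of 0.245.

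IGFBP4, an inhibitor of IGF action that is cut by the protease PAPPA, was higher in adapted cells. It spans chromosome 17, 40443461 to 40457731, plus strand. Sample values of log2(FPKM + 1) were 3.18, 3.09 and 2.998 in parental samples and 4.13, 3.75 and 3.34 in adapted samples. The groups did not overlap, but the lowest adapted sample lay only a little above the highest parental sample, and the adapted samples were spread widely. The log2 difference was 0.65 (standard error 0.18, limma, adjusted p = 0.0190), with a 95% interval from 0.22 to 1.08, and the linear ratio was 1.69. The call was lost without the filter (adjusted p = 0.0934) and in 3 fits that left out a sample, namely parental replicate 2 (0.0537), parental replicate 3 (0.0638) and adapted replicate 2 (0.0567), each time with a difference of 0.60 to 0.65.

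IGFBP6, which prefers IGF2 over IGF1, was lower in adapted cells, but to very different degrees. It spans chromosome 12, 53097436 to 53102345, plus strand. Its log2(FPKM + 1) was 2.74, 2.70 and 2.99 in parental samples and 2.54, 1.04 and 1.01 in adapted samples. Adapted replicate 1 lay just below the parental range, and the other adapted samples were far below it and close to each other. Adapted minus parental, this came to -1.28 (standard error 0.39, limma, adjusted p = 0.0249), with a 95% interval from -2.19 to -0.37. Without adapted replicate 1 it was -1.79 (adjusted p = 7.74e-06), and without adapted replicate 2 or 3 it was -1.04 or -1.02 and the call was lost (adjusted p = 0.0880 and 0.0828). Leaving out any parental sample also took the adjusted p to between 0.0558 and 0.0767, as did the absence of a filter (0.120).

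IGFBP1, a binding protein that insulin represses in liver through FOXO factors, did not pass the threshold. It spans chromosome 7, 45888357 to 45893668, plus strand, 18576 bases from IGFBP3. Values of log2(FPKM + 1) were 2.25, 2.30 and 2.47 in parental samples and 2.87, 1.59 and 1.23 in adapted samples. Adapted replicate 1 was above all parental samples and adapted replicates 2 and 3 were below all of them. As a log2 difference this was -0.44, with a 95% interval from -1.32 to 0.45 (limma, adjusted p = 0.351). Without adapted replicate 1 the difference was -0.92 (adjusted p = 5.49e-04, in a fit that called 66.1% of all rows).

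IGFBP7, a relative with low affinity for IGF that is deposited in basement membrane, was low in both groups except in adapted replicate 1. It spans chromosome 4, 57030773 to 57110385, minus strand, and its start is overlapped by the antisense gene IGFBP7-AS1, whose reads cannot be told apart without strand. Per sample, log2(FPKM + 1) was 0.21, 0.14 and 0.11 in parental samples and 1.64, 0.23 and 0.46 in adapted samples. All adapted values were above all parental values (exact permutation test, two-sided, p = 0.1, which is as low as 3 against 3 samples can go), but adapted replicate 2 was only slightly so, and without the filter limma gave an adjusted p of 0.345. In FPKM the value of adapted replicate 1 was 2.12, against 0.172 and 0.380 in the other adapted samples and at most 0.157 in parental samples.

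**Figure D3:**
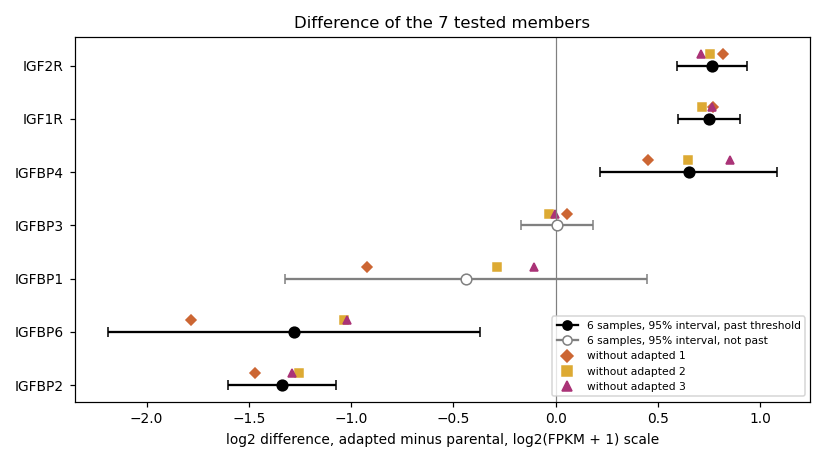
Log2 difference, adapted minus parental, of the 7 tested genes on the x axis, with the 95% interval of limma over 6 samples (circles, filled where adjusted p was under 0.05) and the difference in each fit without an adapted sample (diamonds, squares and triangles). The points of all 7 genes stay within their 95% intervals. Those of the receptors and IGFBP2 lie close to the value from 6 samples, whereas IGFBP1 ranged from -0.92 to -0.11 and IGFBP6 from -1.79 to -1.02 over these 3 fits.

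How far the adapted samples varied among themselves was then compared across the 10 genes. Adapted replicate 1 was above the mean of adapted replicates 2 and 3 by 1.46 for IGFBP1, 1.52 for IGFBP6, 1.29 for IGFBP7, 0.59 for IGFBP4, 0.40 for IGF2, 0.39 for IGFBP2 and 0.17 for IGFBP5. It was below that mean by less than 0.2 for IGF1R, IGF2R and IGFBP3. Of the 7 tested genes, 2 (IGFBP1 and IGFBP6) differed by more than 1, beside the 1.60% of all tested rows given above. These shifts did not all point to the parental level. For IGF1R, IGF2R, IGFBP2 and IGFBP6 adapted replicate 1 lay between the parental mean and the mean of adapted replicates 2 and 3. These are 4 of the 7 tested genes (57.1%), against 50.3% of all tested rows. For IGFBP1, IGFBP3 and IGF2 adapted replicate 1 lay beyond the parental mean. For IGFBP4, IGFBP5 and IGFBP7 it lay farther from the parental mean than the other adapted samples.

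Markers of other cell types were read beside these values, as IGFBP7, IGFBP5 and IGFBP4 are known products of fibroblasts or endothelial cells. The summed level of 7 fibroblast markers was 3.04 to 3.17 FPKM in parental and 8.60 to 9.33 FPKM in adapted samples, and 6 of the 7 averaged under 1 FPKM in both groups, COL1A1 being the exception. COL1A1 rose by 1.12 (limma, adjusted p = 7.80e-05), and LUM went from 0.05 ± 0.011 to 0.61 ± 0.106 (SD, n = 3 each, limma without the filter, adjusted p = 0.00345). COL3A1 was at 1.37 in adapted replicate 1 against 0.17 and 0.11 in the other adapted samples on the log2(FPKM + 1) scale. COL1A2, PDGFRA and PDGFRB were at or near 0 in every sample, as was DCN apart from 0.11 in adapted replicate 1. The 4 endothelial markers summed to 1.17 to 1.87 FPKM in parental and 1.42 to 3.47 FPKM in adapted samples. Among them CDH5 had a mean of 0.21 in parental and 1.71 in adapted samples, PECAM1 of 1.22 and 0.09, and VWF of 0.03 and 0.24 (log2(FPKM + 1)), and CLDN5 was listed at 0 in all adapted samples. Of the 5 immune markers only CD68 averaged over 1 FPKM, and the sum was 74.5 to 76.9 FPKM in parental and 14.8 to 29.8 FPKM in adapted samples. All samples were cultures of the H1975 line, and the study's methods describe no other cell type in them. These markers are therefore given as transcripts of that culture, and contamination by other cells was not tested.

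The order of the levels was compared in FPKM, per transcript length. In parental cells the order by mean FPKM was IGFBP3, IGF2R, IGFBP2, IGFBP4, IGFBP6, IGF1R, IGFBP1, IGF2, IGFBP7 and IGFBP5. Neighbors in this order did not overlap in their sample ranges except IGFBP6 with IGF1R and IGF2 with IGFBP7. In adapted cells it was IGFBP3, IGF2R, IGFBP4, IGF1R, IGFBP2, IGFBP1, IGFBP6, IGFBP7, IGF2 and IGFBP5. Here IGFBP3 stood apart from IGF2R, IGF2R from IGFBP4, and IGF1R from IGFBP2, and every other pair of neighbors overlapped.

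Among the binding proteins other than IGFBP3, the most abundant changed from IGFBP2 to IGFBP4. IGFBP2 held 47.4% to 48.7% of their summed FPKM in parental samples and 19.4% to 31.3% in adapted samples. IGFBP4 held 19.8% to 23.9% in parental samples and 44.5% to 59.7% in adapted samples. This change of order was present in each of the 3 adapted samples, adapted replicate 1 included. The shares also depend on the other genes of the sum. IGFBP4 itself was 6.99 to 8.04 FPKM in parental samples and 16.5, 12.4 and 9.09 FPKM in adapted samples. The FPKM sum of all 7 binding proteins went from 619 ± 10.6 before to 614 ± 28.5 after Osi (SD, n = 3 each), with overlapping samples.

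Genes around the axis were taken from 7 lists by role, 67 genes in all, of which 66 were found in the table and 46 passed the filter. Of these 46, 26 were higher and 9 lower past the threshold in adapted cells (limma, adjusted p under 0.05), against 56.9% called over all rows, and their median log2 difference was 0.36. In 5 of the 66 genes, all among the adaptors and kinases, the 3 values of a group were off the 6-decimal grid that the linear values of 27069 rows follow, and returned to it when a constant was subtracted on the log2 scale. None of the 10 genes of the axis itself had such values.

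**Figure D4:**
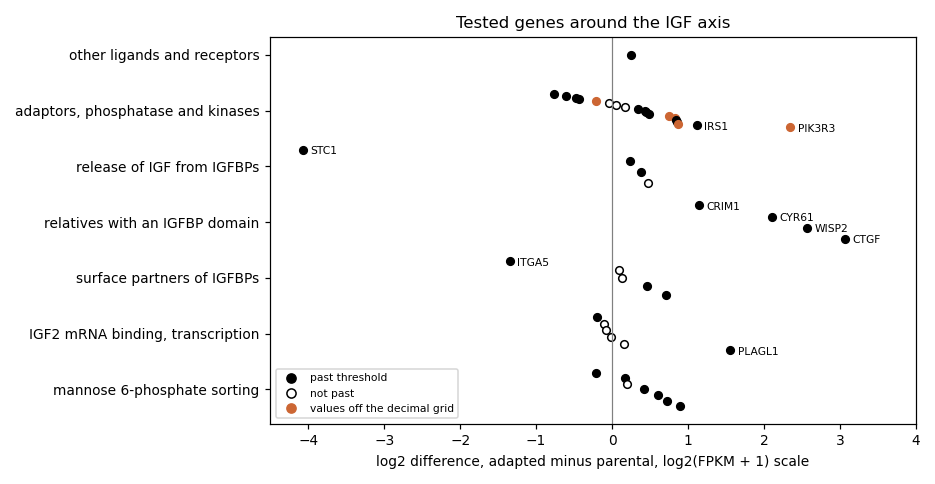
Log2 difference, adapted minus parental, of each tested gene in the 7 lists (x axis), filled where adjusted p was under 0.05 and orange where the values of a group were off the decimal grid. Genes past 1 in either direction are named: CTGF, WISP2, CYR61, CRIM1, IRS1, PIK3R3 and PLAGL1 lie to the right, and STC1 and ITGA5 to the left.

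Of the other ligands and receptors, 1 of 4 passed the filter. INSR, the insulin receptor, went from 2.51 ± 0.020 to 2.75 ± 0.117 (log2(FPKM + 1), SD, n = 3 each), a difference of 0.24 (limma, adjusted p = 0.0339). This call was lost in 7 of the 17 alternatives, including the fit without the filter (adjusted p = 0.0552) and those without adapted replicate 2 or any of the parental replicates, with differences of 0.19 to 0.31 over all of them.

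Below the receptors, 11 of 19 tested adaptors, phosphatases and kinases rose, 5 fell and 3 did not pass the threshold, against 30.7% of all tested rows higher and 26.2% lower. IRS1, the docking protein phosphorylated by IGF1R and INSR, rose from 3.53 ± 0.045 to 4.65 ± 0.268 (SD, n = 3 each), a difference of 1.11 (limma, adjusted p = 3.20e-04). PTPN1, a phosphatase that removes phosphate from these receptors, rose by 0.85 (adjusted p = 2.31e-05), with an SD of at most 0.027 in either group. PIK3R3, a regulatory subunit of PI3K, rose by 2.34 as deposited and by 1.69 with the constant of 0.65 subtracted from its adapted values (adjusted p = 4.53e-04). IRS2 was higher by 0.86 as deposited (adjusted p = 0.00326) and by 0.21 with its constant subtracted (adjusted p = 0.300). With the constants subtracted, 8 genes of this list rose and 4 fell. As deposited, the falls were in GAB1, an adaptor of receptor kinases (-0.76, adjusted p = 0.00103), in PIK3CB, a catalytic subunit of PI3K (-0.60, adjusted p = 0.00279), in GRB14, an inhibitor of the insulin receptor kinase (-0.47, adjusted p = 0.00199), in SH2B2, another adaptor of the insulin receptor (-0.44, adjusted p = 0.00338), and in AKT2 (-0.20, adjusted p = 0.0383). With the constant in the parental values of AKT2 subtracted, its difference was -0.0044 (adjusted p = 0.963).

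Of 8 genes that control the release of IGFs from IGFBPs, 4 passed the filter. Of these 4, 2 rose and 1 fell, against 30.7% of all tested rows higher and 26.2% lower. STC1, stanniocalcin 1, which inhibits the IGFBP protease PAPPA, gave the largest difference of all 46 genes. It went from 4.60 ± 0.037 to 0.53 ± 0.065 (log2(FPKM + 1), SD, n = 3 each), a difference of -4.07 (limma, adjusted p = 1.64e-07), and it passed the filter only through the parental samples. Its relative STC2 was 5.13 ± 0.0067 in parental samples and 6.15, 5.32 and 5.34 in adapted samples, with adapted replicate 1 again apart (difference 0.48, adjusted p = 0.0876, and 0.20 with adjusted p = 0.00578 without that sample). ADAM9, a membrane metalloproteinase, rose by 0.38 (adjusted p = 0.0224) and ADAM28, a protease of IGFBP3, rose by 0.24 (adjusted p = 0.0286). Both lost the call in several of the fits that left out a sample.

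Of 13 relatives that carry an IGFBP domain, 4 passed the filter and all 4 rose, beside 30.7% of all tested rows. CYR61 (CCN1), a matricellular protein, went from 7.43 ± 0.015 to 9.54 ± 0.095 (SD, n = 3 each, difference 2.11, limma, adjusted p = 2.17e-06). CTGF (CCN2) rose by 3.06 (adjusted p = 6.95e-06), CRIM1, a membrane protein that binds BMPs, rose by 1.15 (adjusted p = 4.10e-05), and WISP2 (CCN5) rose by 2.57 (adjusted p = 4.32e-04). WISP2 averaged under 1 in parental cells and passed the filter only through the adapted samples. The summed level of this list went from 189 to 193 FPKM in parental samples to 777 to 849 FPKM in adapted samples. Most of this sum was CYR61, and 8 of the 13 genes averaged under 1 FPKM in both groups.

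Surface proteins known to bind IGFBPs moved in both directions. ITGA5, the integrin subunit through which IGFBP1 binds cells, fell, with a value of -1.35 (log2 difference, adjusted p = 1.69e-04 in limma). LRP1, an endocytic receptor that binds IGFBP3, rose by 0.72 (adjusted p = 1.91e-04), and ITGAV rose by 0.46 (adjusted p = 0.0234), a call lost in 4 of 18 alternatives. ITGB1 (0.14, adjusted p = 0.213) and TMEM219, a proposed receptor of IGFBP3 (0.09, adjusted p = 0.181), did not pass the threshold, although ITGB1 did after quantile normalization (0.21, adjusted p = 0.0129).

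Genes that bind IGF2 mRNA or act on its transcription were mostly not called. The difference was -0.018 for IGF2BP1, -0.10 for IGF2BP2 and 0.16 for IGF2BP3, with adjusted p of 0.827, 0.376 and 0.173 (limma). IGF2BP2 was called without adapted replicate 3 (-0.20, adjusted p = 0.0241) and IGF2BP3 without adapted replicate 1 (0.25, adjusted p = 0.00419). PLAGL1, an imprinted zinc-finger factor, rose by 1.56 (adjusted p = 1.16e-05) and passed the filter only through the adapted samples. PLAG1, a zinc-finger factor known to activate IGF2, fell by 0.20 (adjusted p = 0.0497), a call lost in 9 of 17 alternatives. H19 was not analysed here.

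Genes of the mannose 6-phosphate route, in which IGF2R carries newly made lysosomal enzymes, were called in 6 of 7 cases, 5 higher and 1 lower, where 56.9% of all tested rows were called. GNPTG and GNPTAB, subunits of the transferase that makes the tag, rose by 0.89 (limma, adjusted p = 8.41e-05) and 0.72 (adjusted p = 0.00147). NAGPA, which uncovers the tag, rose by 0.61 (adjusted p = 0.00229), and GGA2, an adaptor that sorts these receptors at the Golgi, rose by 0.42 (adjusted p = 7.09e-04). GGA1 fell by 0.21 (adjusted p = 0.0344), a call lost in 7 of 18 alternatives. M6PR, the smaller receptor of this route, which was named after its value was seen, rose by 0.16 (adjusted p = 0.0324), a call lost in 6 of 18 alternatives.

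Finally, the rows whose values were most like those of IGF2R and IGFBP2, the genes with the largest rise and fall on the log2(FPKM + 1) scale, were listed, by the root mean square distance between values centered on each gene's mean over the 6 samples, among 11707 named rows. On the linear scale IGF1R rose more than IGF2R (ratios of 1.80 and 1.72). Nearest to IGF2R were TNFAIP1 (distance 0.017 on the log2 scale), MICA, SLC16A6, YIPF1 and GAB2 (0.036). Nearest to IGFBP2 were GAPDH (0.033), SAPCD2, ADGRE5, LMNB1 and KIF18A (0.052). GAPDH, a glycolytic enzyme often used as a reference transcript, was 11.56 in parental and 10.24 in adapted cells, a difference of -1.32 against -1.34 for IGFBP2.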

How the data were processed

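The authors deposited 1 table of values on a log2 scale with 1 column per sample, and all 6 columns were used, each assigned to a sample through its group name and number. The added 1 and the unit, taken as FPKM, were inferred from the values, since the linear values of 27069 of 27216 rows have 6 decimals. The submitters' processing notes name Bowtie2 2.1.0, STAR and the build hg38, and the quantifier, annotation and strand setting are not given in the sources used here. The study's own test needs counts, so limma 3.58.1 in R 4.3.3 was run on the log2 values of rows with a mean of at least 1 (eBayes with an intensity trend, unpaired, Benjamini-Hochberg adjustment, threshold 0.05). Fold changes on the log2(FPKM + 1) scale understate the change of low genes. Nothing says that the replicates were separate cultures, so p-values measure the spread between these samples, which may be technical. The genes and lists were chosen with earlier results of these data known. All 10 genes of the axis are named, and of each list every called gene, or the 4 largest in a direction. STC2, IGF2BP genes, ITGB1, TMEM219, AKT2, M6PR and the genes below the filter were named after their values were seen. Coordinates are from GENCODE 29 and start sequences from RefSeq, read with Python 3.11. Alternatives changed the pseudocount (0.1), the filter, the scaling, the eBayes settings, the replicate block, the off-grid rows and each sample in turn.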

Additional observations from a re-analysis of the deposited data

How the results depend on the processing

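The number of called rows, 7202, was 4532 with a filter at a mean of at least 3, where 7693 rows were left to test, and ranged from 5763 to 8370 over the 6 fits that each left out a sample. The same stricter filter left 31 of the 46 genes around the axis, of which 21 were called in place of 35, and the fits without a sample gave 27 to 39. Of the 10 genes of the axis, 3 in place of 5 were called without a filter, and 3 to 6 over the fits without a sample. Leaving out parental replicate 2, parental replicate 3 or adapted replicate 2 gave 3 calls, losing IGFBP4 and IGFBP6, and the fit without adapted replicate 1 called 6, adding IGFBP1. IGF1R, IGF2R and IGFBP2 were called in all 18 alternatives. IGF2BP1, never called, changed sign after rescaling without mitochondrially encoded genes (0.023). IGFBP3, also never called, changed sign after centring on the sample median (-0.013) and ranged from -0.033 to 0.058 over the fits without a sample. The summed binding proteins changed by -0.014 on the log2 scale, and by -0.047 to 0.021 without a sample. With the replicate number as a block, 6761 rows, 5 genes of the axis and 30 genes around it were called, INSR, PLAG1, GGA1, AKT2 and M6PR losing theirs and no gene of the axis or around it gaining one. The numbers are not known to pair the samples, and the deviations of same-numbered samples from their group means correlated at -0.051, -0.031 and -0.020. Subtracting the constants, added after the data were seen, gave 31 genes around the axis. No depth is known, so values near 0, such as those of IGF2, IGFBP5 and IGFBP7, have no counting error and no detection limit.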

Other observations

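Among the 20 genes of these lists that averaged below the filter, several were higher in all 3 adapted samples than in all 3 parental samples. Those named here were chosen after their values were seen. How often other rows below the filter separated in this way was not counted. ADAM12, ITGB3 and HTRA1 averaged at least 1 only in the adapted samples. ADAM12, a metalloproteinase that cuts IGFBP3 and IGFBP5, was 0.17 ± 0.040 in parental and 1.40 ± 0.052 in adapted cells (log2(FPKM + 1), SD, n = 3 each, limma without the filter, adjusted p = 2.94e-04). ITGB3, the integrin subunit that pairs with ITGAV, was 0.37 ± 0.055 and 1.33 ± 0.233 (adjusted p = 0.00729). IGFBPL1, a relative with an IGFBP domain, was listed at 0 in all parental samples and at 0.34, 0.57 and 0.41 in adapted samples (adjusted p = 0.00915). HTRA1, a secreted protease with an IGFBP domain, was 0.00, 0.06 and 0.17 in parental samples and 1.64, 0.76 and 0.82 in adapted samples (adjusted p = 0.0493), with adapted replicate 1 the highest. PAPPA, the protease of IGFBP4, was 0.15 ± 0.012 and 0.53 ± 0.205 (adjusted p = 0.0620). Without the filter, 29.5% of all rows were called.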
